A study of Rattus norvegicus with 6 samples.

Results

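The cadherin superfamily is represented by 80 of the 19382 genes in the deposited table, taken as every symbol that starts with Pcdh, or with Cdh, Fat, Celsr or Dchs and a digit. These are 36 clustered protocadherins, 12 non-clustered protocadherins, 18 classical cadherins, 5 other Cdh genes, 6 Fat and Dchs genes and 3 Celsr genes. Their transcripts were measured by bulk RNA sequencing of rat brain tissue in 3 hypoxia-ischemia (HI) libraries and 3 control libraries. Per the labels and the series text, the HI libraries came from SD rats, 7 days old, that underwent 2.5 h of ischemia-hypoxia, used as a model of brain injury around birth, and the control libraries carry only a control treatment. Brain region, interval to sampling, genotype, control age and sham surgery are not given, and no library is labelled with echinatin, the compound in the series title. Nothing in the labels ties each library to its own animal, and p-values therefore reflect sample-to-sample spread that could be technical.

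Cadherins are calcium-dependent cell adhesion proteins. Classical cadherins bind the same or a related cadherin on the neighbouring cell and are tied to actin through catenins, and in brain they hold together neuroepithelium, vessels and synapses. Clustered protocadherins are made by choosing among tandem exons, each with its own promoter. The mixture of isoforms displayed by a neuron lets its branches recognise each other as self. Non-clustered protocadherins act in axon growth, cell sorting and synapse remodelling. Fat and Dchs proteins are large ligand and receptor partners, and Celsr proteins are seven-pass receptors of planar cell polarity.

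The first exons of clustered protocadherins have their own promoters, and the promoter sequences show what the separately counted transcripts have in common. RefSeq promoters (assembly GRCr8, 250 bases before to 50 after the annotated start) were found for 61 members, 30 of them clustered. The run found in the most beta promoters was GGTGGCGCTG, present in 14 of 15, and the run found in the most gamma promoters was CGCTGTT, present in 10 of 14. These member counts are for the strand of the gene, and on the other strand the gamma run was in 1 gamma promoter. On either strand the beta run occurred in 0.221% and the gamma run in 1.98% of all 33469 promoters. Both hold the letters CGCTG, which by themselves were in 26 of 30 clustered promoters, 21 of 31 promoters of other members and 37.0% of all promoters. The stretches shown are those of the called genes that carry a run, with Pcdhb7 and Pcdhga9 beside them as genes of the same clusters that did not pass the test. Capitals mark the run, and every sequence is on the + strand.
Pcdhb3: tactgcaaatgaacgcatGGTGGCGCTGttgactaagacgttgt
Pcdhb7: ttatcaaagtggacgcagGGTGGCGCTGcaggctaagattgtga
Pcdhga3: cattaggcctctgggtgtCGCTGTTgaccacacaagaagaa
Pcdhga7: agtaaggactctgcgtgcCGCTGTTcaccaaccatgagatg
Pcdhga10: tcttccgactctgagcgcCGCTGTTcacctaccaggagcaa
Pcdhga12: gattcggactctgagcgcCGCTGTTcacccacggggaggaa
Pcdhga9: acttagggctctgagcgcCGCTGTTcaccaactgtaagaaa

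In GRCr8 the stretches lie at chr18:29285596-29285639 (Pcdhb3), chr18:29328990-29329033 (Pcdhb7), chr18:29750312-29750352 (Pcdhga3), chr18:29794202-29794242 (Pcdhga7), chr18:29825811-29825851 (Pcdhga10), chr18:29843859-29843899 (Pcdhga12) and chr18:29815780-29815820 (Pcdhga9). Relative to the annotated start, the first base of the run was at -229 to -46 in beta promoters and at -235 to -20 in gamma promoters. Clustered protocadherin promoters are known to share a conserved element with a CGCT core. The run was found in 1 of 1 beta and 4 of 5 gamma promoters of genes called lower, and in 13 of 14 beta and 6 of 9 gamma promoters of the others. Both called and uncalled genes carried it. Among the called genes, Pcdhgc5 did not have the gamma run on its own strand. It is an isoform of the C type, which stands at the end of the gamma array.

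Depth was similar in all libraries, at 14324303 to 14927469 estimated reads in HI and 13922663 to 14692505 in control. Where a gene had no read, up to 3 reads remain possible, or 0.181 to 0.200 CPM in HI and 0.221 to 0.227 CPM in control, counting error only. CPM are counts per library size with TMM scaling, a correction for library composition. The members took 0.522%, 0.461% and 0.408% of the reads of HI 1, 2 and 3, against 0.504%, 0.501% and 0.526% in controls 1, 2 and 3. Brain cell markers were present in every library, and no gene of the marker lists was at 0 throughout. The libraries differed in what tissue their markers show. A list of 10 choroid plexus genes summed to 228, 8545 and 15916 CPM in HI 1, 2 and 3, against 32.1, 2364 and 35.2 CPM in controls 1, 2 and 3. A list of 10 genes of dorsal telencephalon and cortical projection neurons summed to 228, 286 and 240 CPM in HI, against 1555, 1727 and 896 CPM in control, and 5 of its genes fell. Control 3 had the lowest sum of this list among the controls. In bulk tissue, fewer cells of a type and less RNA per cell cannot be told apart.

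Members of the superfamily were mostly lower in HI. Of 75 tested members 13 fell and 1 rose at an edgeR adjusted p below 0.05, which is 17.3% and 1.33%, against 7.04% lower and 6.83% higher among all 14959 tested genes. Every HI library lay below every control in 31 members (41.3%, against 20.9% of all genes) and above in 3 members (4%, against 21.4%). The median log2 fold change was -0.42 over the tested members and 0.04 over all genes, and it was negative in 58 members (77.3%, against 46.7%). An unadjusted p below 0.05 was reached by 33 lower and 4 higher members, and by 36.5% of all genes in either direction. The members called lower were Pcdha4, Pcdhb3, Pcdhb22, Pcdhga3, Pcdhga7, Pcdhga10, Pcdhga12, Pcdhgc5, Pcdh9, Cdh6, Cdh9, Fat4 and Celsr2, and the member called higher was Cdh5. Not tested, for low counts, were Pcdhb1, Cdh16, Cdh17, Cdh19 and Cdh26, whose highest library held 2, 1, 10, 6 and 15 reads.

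These calls rest on all of HI 2, control 1 and control 2. With any of these 3 libraries left out no member and at most 1 gene of the whole table was called by edgeR, and 25 to 27 members had an unadjusted p below 0.05. Without HI 3 there were 4 lower and no higher members, without HI 1 there were 22 and 2, and without control 3 there were 10 and 3. Over all genes 399 were lower and 245 higher without HI 3. The same counts were 1592 and 2097 without HI 1, and 1086 and 608 without control 3. Of the 13 members called lower, 8 were still called without control 3. The summed choroid plexus or the summed cortical list was also added to the fit as a covariate, a choice made after the data were seen. No member and no gene of the whole table was then called, and 28 and 12 members had an unadjusted p below 0.05. The cortical list did not overlap between the groups, so its level and the injury cannot be told apart in these libraries.

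**Figure D1:**
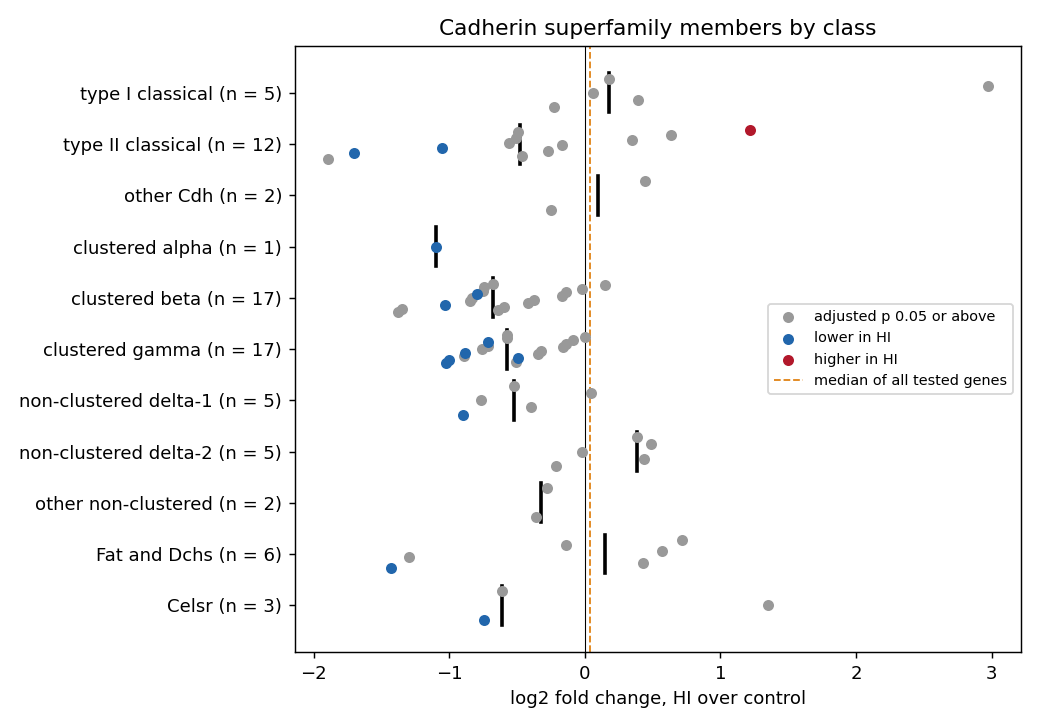
Log2 fold change, HI over control, of the 75 tested members by class, 1 point per gene. Black bars are class medians, blue points were called lower, the red point (Cdh5) higher, and the dashed line is the median of all tested genes at 0.04. All but 1 of the clustered points lie below 0, while classical and Fat members spread to both sides.

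The classes differed in how their members were distributed. Of 35 tested clustered protocadherins 34 had a negative log2 fold change (97.1%), 8 fell (22.9%), none rose and 21 had all HI libraries below all controls (60%). The clustered median was -0.64 and the range -1.38 to 0.15, and 31 of the 35 were negative with upper-quartile scaling and 27 with total counts. Of 12 non-clustered protocadherins 8 were negative and 1 fell, with a median of -0.25 between -0.90 and 0.49, and 1 had all HI libraries below all controls. Of 17 tested classical cadherins 10 were negative, 2 fell and 1 rose, with a median of -0.23 between -1.90 and 2.97, and 5 had all HI libraries below all controls. No test was made between classes. Clustered genes lie in tandem and gamma isoforms share 3' exons, so clustered genes are not independent of one another.

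The alpha cluster is held in a single row, Pcdha4. Its RefSeq record carries 14 synonyms that name other alpha genes, so the row may hold reads of more than 1 alpha isoform. Pcdha4 had 327, 286 and 171 CPM in HI 1, 2 and 3, against 577, 619 and 485 CPM in controls 1, 2 and 3. Every HI library was lower than every control, and HI 3 was the lowest. The log2 fold change was -1.10 ± 0.25 (SE, edgeR adjusted p = 0.0383), a level of 0.466-fold. All its entries were whole numbers.

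The beta cluster consists of single-exon genes, each a complete protocadherin. Of its 17 tested rows 2 fell, none rose, and 10 had all HI libraries below all controls, with a median log2 fold change of -0.67. Pcdhb22 had 9.09, 8.15 and 7.32 CPM in HI, against 16.6, 20.1 and 13.5 CPM in control, with a log2 fold change of -1.03 ± 0.20 (SE, edgeR adjusted p = 0.0292). Pcdhb3 had 7.01, 6.16 and 5.38 CPM in HI, against 9.31, 12.1 and 10.9 CPM in control, with a log2 fold change of -0.80 ± 0.20 (SE, edgeR adjusted p = 0.0458). This call was lost with upper quartiles (adjusted p = 0.0571), total counts (0.0713), no filter (0.0513) and limma-voom (0.0526). The groups did not overlap in either Pcdhb22 or Pcdhb3, HI 3 held the lowest value in both, and all entries of both were whole numbers. At the other end, Pcdhb7 had 17.1, 13.9 and 13.6 CPM in HI, against 17.3, 13.7 and 17.96 CPM in control, and the groups overlapped (log2 fold change -0.13, edgeR adjusted p = 0.611). The 1 clustered member with a positive value was Pcdhb6, at 3.94, 1.48 and 0.907 CPM in HI, against 2.88, 1.69 and 1.12 CPM in control. The other beta rows ran between -1.38 (Pcdhb2) and -0.02 (Pcdhb4), with the larger values in rows of few reads. Pcdhb2 had 0.869, 1.35 and 0.726 CPM in HI, against 2.88, 3.53 and 1.27 CPM in control. Summed over its 18 rows the beta cluster had 126, 110 and 88.6 CPM in HI 1, 2 and 3, against 167, 173 and 148 CPM in controls 1, 2 and 3. The log2 ratio of that sum was -0.59 ± 0.15 (SE).

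In the gamma cluster each variable exon is joined to 3' exons common to all isoforms. In RefSeq, 12 of 15 matched gamma genes have the same annotated end. Of 17 tested gamma rows 5 fell, none rose, and 10 had all HI libraries below all controls, with a median log2 fold change of -0.57. All 17 estimates were negative with TMM scaling, 15 with upper quartiles and 13 with total counts, and they ran from -1.03 in Pcdhga12 to nearly 0 in Pcdhga9.

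Of the A subtype, Pcdhga10 had 51.6, 50.7 and 43.2 CPM in HI, against 80.1, 95.7 and 92.5 CPM in control, with a log2 fold change of -0.88 ± 0.12 (SE, edgeR adjusted p = 0.0215). Pcdhga12 had 33.8, 25.4 and 24.02 CPM in HI, against 62.0, 57.2 and 50.4 CPM in control (log2 fold change -1.03 ± 0.17 SE, edgeR adjusted p = 0.0235). In both genes the highest HI library lay well under the lowest control. Pcdhga3 had 30.5, 24.8 and 20.7 CPM in HI, against 43.1, 48.1 and 61.0 CPM in control (log2 fold change -1.002 ± 0.20 SE, edgeR adjusted p = 0.0298). Pcdhga7 had 37.1, 46.5 and 40.0 CPM in HI, against 66.4, 79.5 and 56.6 CPM in control (log2 fold change -0.71 ± 0.16 SE, edgeR adjusted p = 0.0370). With total counts its adjusted p was 0.0570. Among the A genes not called was Pcdhga9, at 24.7, 18.7 and 18.3 CPM in HI, against 16.4, 18.7 and 26.7 CPM in control, where the groups overlapped throughout.

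Of the C subtype 1 of 2 rows was called. Pcdhgc5, which is switched on late in neuronal maturation in mouse, had 25.3, 28.6 and 29.1 CPM in HI, against 35.4, 37.97 and 43.5 CPM in control (log2 fold change -0.49 ± 0.13 SE, edgeR adjusted p = 0.0487). The call was lost with upper quartiles (adjusted p = 0.0747), total counts (0.161) and limma-voom (0.0571). Pcdhgc3, the C isoform that is expressed broadly rather than by chance choice, had 429, 440 and 456 CPM in HI, against 495, 465 and 450 CPM in control. Control 3 lay below HI 3, and the log2 fold change was -0.09 ± 0.10 (SE, edgeR adjusted p = 0.551). This sign depends on the scaling, since it was 0.01 with upper quartiles and 0.11 with total counts.

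Within the cluster, the A isoforms took 34.8%, 33.0% and 30.9% of the gamma reads in HI 1, 2 and 3, against 39.1%, 42.5% and 43.2% in controls 1, 2 and 3, without overlap. The B isoforms took 12.9%, 12.3% and 11.3% in HI, against 12.7%, 11.6% and 11.2% in control, where the groups overlapped. The 11 A rows summed to 303, 284 and 259 CPM in HI, against 431, 465 and 468 CPM in control. The 4 B rows summed to 112, 106 and 94.4 CPM in HI, against 140, 127 and 122 CPM in control, and none was called. The 2 C rows summed to 454, 469 and 485 CPM in HI, against 531, 503 and 494 CPM in control. Pcdhgc3 alone took 49.3%, 51.3% and 54.4% of the gamma reads in HI 1, 2 and 3, against 45.0%, 42.4% and 41.5% in controls 1, 2 and 3. The shares did not overlap, and being within 1 library they do not depend on its scaling. The whole gamma cluster summed to 870, 859 and 838 CPM in HI, against 1101, 1095 and 1084 CPM in control, or 855 ± 15.98 CPM in HI and 1094 ± 8.72 CPM in control (SD, n = 3 each). The log2 ratio of the gamma sum was -0.35 ± 0.11 (SE).

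**Figure D2:**
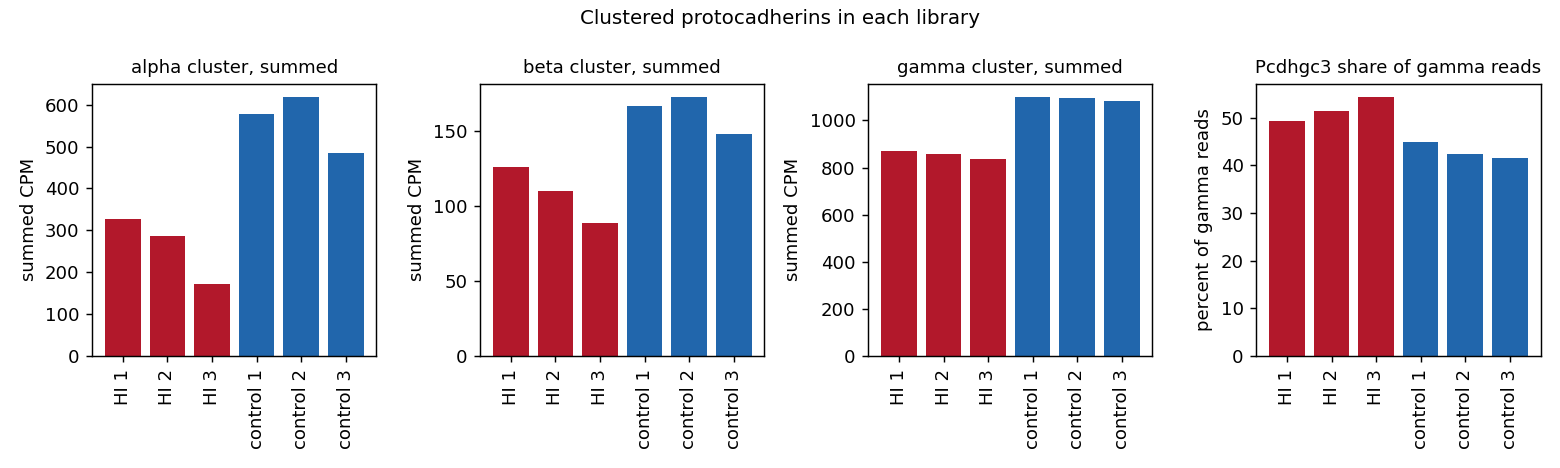
Summed CPM of the alpha, beta and gamma clusters and the share of gamma reads in Pcdhgc3, 1 bar per library, HI left of control. The 3 sums lie lower in every HI library than in every control, and the Pcdhgc3 share lies higher, at 49.3% to 54.4% in HI against 41.5% to 45.0% in control.

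**Figure D3:**
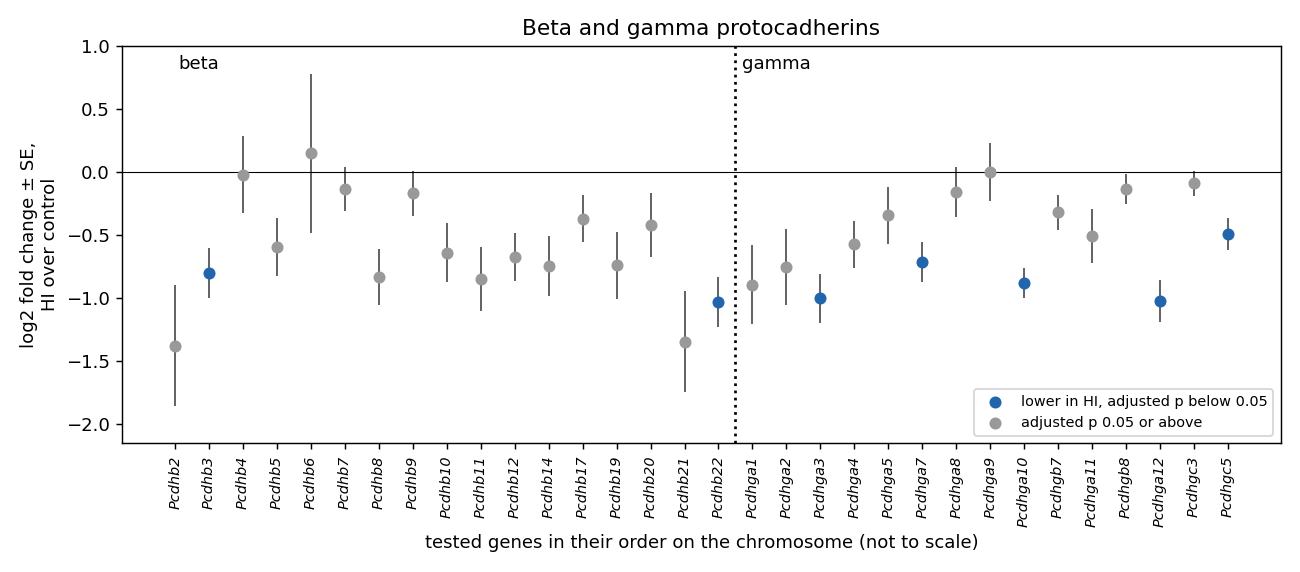
Log2 fold change ± SE, HI over control, of beta and gamma genes in their order along the chromosome in GRCr8, not to scale, for tested genes found there. Blue marks genes called lower. Called genes occur in both clusters with uncalled genes between them.

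Reads shared between genes were concentrated in the clusters. Entries that are not whole numbers (beyond 1e-09) made up 94 of 102 gamma entries (92.2%) and held 98.6% of gamma reads, and made up 42 of 108 beta entries (38.9%) and 50.4% of beta reads. Apart from these, only Fat4 (6 entries) and Dchs2 (3 entries) had any, and every classical, non-clustered, other Cdh and Celsr entry was whole. Such entries arise where reads are divided among matching genes, so single gamma and beta values are uncertain, and how it was done was not given in the sources used here. Summed beta and gamma reads were not whole in every library either, so part was divided with rows outside these symbols. A further 4 rows listed under other symbols are clustered protocadherins in RefSeq (Pcdhb6l, Pcdhb15, Pcdhb16 and the Pcdhgb1 pseudogene), and of these Pcdhb16 was called lower, with a log2 fold change of -0.90 (edgeR adjusted p = 0.0282). Leaving out the 30 members with any such entry left 7 members called lower.

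Type I classical cadherins, the N-cadherin group, showed no call. Of 5 tested, 4 had a positive and 1 a negative log2 fold change, with a median of 0.18. Cdh2 (N-cadherin), which joins neuroepithelial cells and synapses, had 273, 262 and 254 CPM in HI, against 311, 345 and 267 CPM in control (log2 fold change -0.23 ± 0.12 SE, edgeR adjusted p = 0.222). HI 1 lay above control 3 here, while controls 1 and 2 lay above every HI library. Cdh4 (R-cadherin) had 167, 153 and 133 CPM in HI, against 93.0, 75.2 and 177 CPM in control, with control 3 above every HI library. Without control 3, Cdh4 was called higher.

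Cdh3 (P-cadherin), a cadherin of epithelia, had 1.40, 33.4 and 49.9 CPM in HI 1, 2 and 3, against 0.757, 8.68 and 1.35 CPM in controls 1, 2 and 3. The 3 high libraries, HI 2, HI 3 and control 2, are those with the highest sums of the choroid plexus list. The log2 fold change of Cdh3 was 2.97 ± 1.33 (SE, edgeR adjusted p = 0.158), and it was -0.08 with the choroid plexus list as a covariate. That covariate was chosen after the data were seen, and no gene of the whole table was called with it. The part of choroid plexus content in the Cdh3 value was not tested. Cdh1 (E-cadherin) stayed low, at 2.47, 1.09 and 4.78 CPM in HI, against 3.48, 2.65 and 1.27 CPM in control, although a 4-gene epithelial list summed to 22.4, 71.6 and 136 CPM in HI and to 16.9, 17.0 and 12.9 CPM in control.

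Of 12 tested type II classical cadherins, 2 fell (Cdh6 and Cdh9), 1 rose (Cdh5), and 5 had all HI libraries below all controls, with a median of -0.48. Cdh6, which marks borders between territories of the developing mouse forebrain, had 16.8, 10.7 and 10.3 CPM in HI, against 46.1, 51.0 and 25.7 CPM in control. All HI libraries were below all controls, with control 3 the lowest control, and the log2 fold change was -1.70 ± 0.32 (SE, edgeR adjusted p = 0.0275), or -1.98 without control 3. Cdh9, a synaptic cadherin of hippocampal mossy fibre connections in mouse, had 14.1, 15.7 and 8.83 CPM in HI, against 29.7, 24.8 and 25.4 CPM in control (log2 fold change -1.05 ± 0.23 SE, edgeR adjusted p = 0.0367). Cdh12, a neuronal cadherin, had 13.96, 9.57 and 5.44 CPM in HI, against 59.1, 32.9 and 15.8 CPM in control. Its HI libraries lay below all controls, yet the controls differed widely and the log2 fold change of -1.90 ± 0.54 (SE) had an edgeR adjusted p of 0.0607. Beside these falls, the cortical list was lower in every HI library than in every control, and control 3 was the lowest control in Cdh6, Cdh12 and that list. With that list as a covariate the log2 fold change of Cdh6 was 0.30 (edgeR adjusted p = 0.967). Because the list did not overlap between the groups, that fit cannot tell its level from the injury. The part of cortical cells in the Cdh6 value was not tested.

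Cdh5 (VE-cadherin), the cadherin of endothelial junctions, had 15.9, 27.0 and 34.8 CPM in HI, against 8.85, 13.03 and 11.6 CPM in control. The lowest HI library, HI 1, lay just above the highest control, and the log2 fold change was 1.22 ± 0.31 (SE, edgeR adjusted p = 0.0485). It was not called by limma-voom, with an adjusted p of 0.0770, or without a filter, with 0.0525. An endothelial list summed to 192, 333 and 412 CPM in HI, against 181, 242 and 233 CPM in control, with none of 9 tested genes called. Pecam1, another endothelial junction protein, had 9.09, 24.3 and 23.1 CPM in HI, against 6.66, 8.54 and 8.08 CPM in control. The part of vessel content in the Cdh5 value was not tested. In Pcdh12, an endothelial protocadherin, the groups overlapped and the log2 fold change was negative (-0.36). It had 3.07, 4.82 and 5.20 CPM in HI, against 4.31, 6.77 and 5.76 CPM in control.

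Of the type II members not yet described, Cdh10 and Cdh20 had all HI libraries below all controls without being called, and the groups overlapped in the others. Cdh8 had 152, 77.6 and 51.4 CPM in HI, against 153, 99.8 and 143 CPM in control (log2 fold change -0.49, edgeR adjusted p = 0.402), and HI 1 was close to the controls. Cdh22 had 48.2, 53.6 and 42.0 CPM in HI, against 21.9, 16.9 and 54.0 CPM in control. It was called higher without control 3. Cdh13 (T-cadherin), the member anchored by a lipid in place of a membrane span, had 270, 247 and 155 CPM in HI, against 213, 285 and 300 CPM in control (log2 fold change -0.25, edgeR adjusted p = 0.484). Cdh23 and Pcdh15, which form the tip links of hair cells, were at 9.02, 7.06 and 5.44 CPM in HI, against 8.48, 2.58 and 4.79 CPM in control for Cdh23, and at 9.55, 9.63 and 6.84 CPM in HI, against 10.97, 8.90 and 11.7 CPM in control for Pcdh15.

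**Figure D4:**
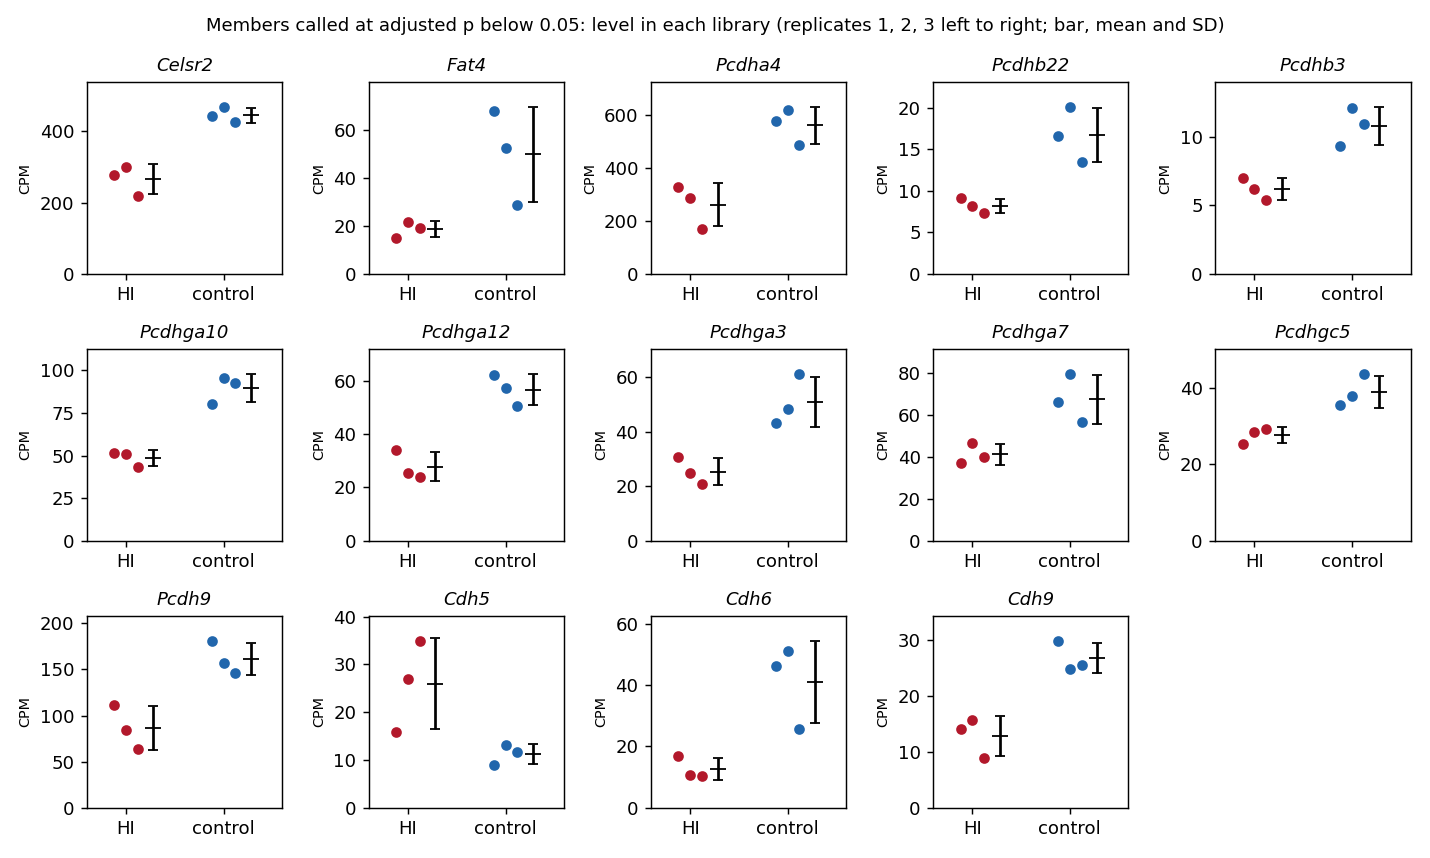
CPM of the 14 called members in each library, replicates from left to right, HI left of control, with mean and SD beside them. HI lies below control in 13 panels and above it in Cdh5, with no overlap in any panel.

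**Figure D5:**
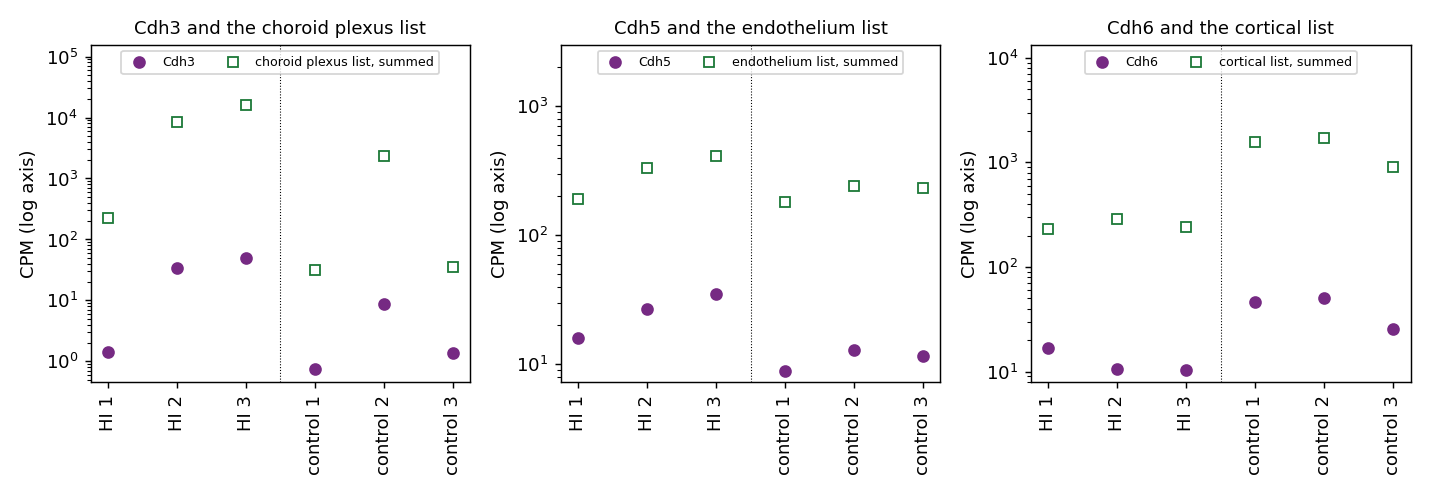
CPM on a log axis of Cdh3, Cdh5 and Cdh6 (filled) and of the summed marker list set beside each (open squares) in every library. Cdh3 is high in the 3 libraries with the largest choroid plexus sums, and both Cdh6 and the cortical list are lower in all HI libraries than in all controls.

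The non-clustered protocadherins form subfamilies. The delta-1 members, which carry a phosphatase-binding motif, had a median log2 fold change of -0.52, with 1 of 5 called, and the delta-2 members, several of which recruit the WAVE actin regulator, had a median of 0.39, with none of 5 called. Pcdh9 had 112, 84.4 and 63.3 CPM in HI, against 181, 157 and 147 CPM in control. Its groups did not overlap, and the log2 fold change was -0.90 ± 0.21 (SE, edgeR adjusted p = 0.0410). Pcdh7 had 115, 130 and 100 CPM in HI, against 169, 203 and 125 CPM in control (log2 fold change -0.52 ± 0.19 SE, edgeR adjusted p = 0.107). Control 3 fell below HI 2 in Pcdh7, and without control 3 the log2 fold change was -0.73 with an edgeR adjusted p of 0.0450.

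Among the delta-2 genes, Pcdh8 (arcadlin), which removes N-cadherin from active synapses, had 125, 137 and 114 CPM in HI, against 75.3, 87.6 and 115 CPM in control (log2 fold change 0.43 ± 0.17 SE, edgeR adjusted p = 0.120). Pcdh18 had 52.5, 46.0 and 44.0 CPM in HI, against 29.2, 30.8 and 49.1 CPM in control (log2 fold change 0.39 ± 0.22 SE, edgeR adjusted p = 0.246). In both, controls 1 and 2 lay below every HI library and control 3 did not, and Pcdh18 was called higher without control 3, with a log2 fold change of 0.63 (edgeR adjusted p = 0.0458). Pcdh10 had 230, 191 and 118 CPM in HI, against 143, 158 and 323 CPM in control, so that control 3 was the highest library of all (log2 fold change -0.21 ± 0.38 SE, edgeR adjusted p = 0.707). Pcdh19, the X-linked gene of a human epilepsy, was at 186, 149 and 126 CPM in HI, against 175, 144 and 149 CPM in control, and Pcdh17 at 281, 116 and 106 CPM in HI, against 121, 89.9 and 147 CPM in control.

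Control 3 lay apart from the other controls in members of several classes. In 9 of the 75 tested members controls 1 and 2 were above every HI library and control 3 was not, among them Pcdh7, Cdh2, Cdh11 and Pcdhgc3. In 5 members controls 1 and 2 were below every HI library and control 3 was not, namely Pcdh8, Pcdh18, Cdh4, Cdh22 and Dchs2. Among HI libraries, HI 3 was the lowest in 57 members and HI 1 the highest in 53. These counts were made over the members only, so no share of all genes stands beside them. No such count was made for control 1 or control 2 standing apart.

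Of 6 Fat and Dchs genes 1 fell and none rose, with a median of 0.15. Fat4, the receptor for Dchs1, had 14.9, 21.5 and 19.1 CPM in HI, against 68.0, 52.5 and 28.9 CPM in control, with all HI libraries below all controls and control 3 nearest to them. Its log2 fold change was -1.43 ± 0.32 (SE, edgeR adjusted p = 0.0376), and all 6 of its entries were not whole. It was not called by limma-voom, at an adjusted p of 0.0587. Its ligand Dchs1 had 206, 163 and 140 CPM in HI, against 189, 201 and 169 CPM in control (log2 fold change -0.14 ± 0.16 SE, edgeR adjusted p = 0.568). Fat1, which acts on actin at cell edges, had 239, 225 and 222 CPM in HI, against 172, 143 and 193 CPM in control. All HI libraries of Fat1 were above all controls, and the log2 fold change was 0.43 ± 0.13 (SE, edgeR adjusted p = 0.0674). Fat3, known from retinal neurons in mouse, had 38.3, 20.7 and 9.98 CPM in HI, against 59.9, 39.5 and 69.9 CPM in control (log2 fold change -1.30 ± 0.48 SE, edgeR adjusted p = 0.105).

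Of 3 Celsr genes 1 fell and none rose. Celsr2, which with Celsr3 orders ependymal cilia in mouse, had 277, 301 and 220 CPM in HI, against 442, 468 and 425 CPM in control. Its log2 fold change was -0.74 ± 0.14 (SE, edgeR adjusted p = 0.0282). Celsr3, which guides long axon tracts, had 253, 202 and 141 CPM in HI, against 321, 327 and 263 CPM in control, without overlap but with an edgeR adjusted p of 0.101 (log2 fold change -0.61 ± 0.22 SE). Celsr1, found in neural progenitors and ependyma, had 42.4, 38.1 and 77.4 CPM in HI, against 33.98, 13.98 and 14.1 CPM in control, and its log2 fold change of 1.35 ± 0.44 (SE) had an edgeR adjusted p of 0.0816. An ependymal list summed to 95.9, 87.3 and 199 CPM in HI, against 55.2, 39.4 and 27.8 CPM in control, and its gene Foxj1 rose. Whether cell content bears on the Celsr1 value was not tested.

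Genes that act with, on or upstream of cadherins, here termed partner genes, were read from 5 further lists, with 20 genes called in all. The shares of all genes to set beside their counts are 6.83% higher and 7.04% lower. Of 11 tested catenins and adaptors 2 rose and 3 fell (18.2% and 27.3%). Ctnna1 (alpha-catenin), the link to actin in epithelia and glia, rose to 126, 176 and 253 CPM in HI, against 81.1, 72.6 and 83.9 CPM in control (log2 fold change 1.22 ± 0.25 SE, edgeR adjusted p = 0.0318). All 6 entries of Ctnna1 were not whole, so its values include divided reads. Its neuronal relative Ctnna2 had 206, 158 and 115 CPM in HI, against 258, 254 and 238 CPM in control, with an edgeR adjusted p of 0.0768. Ctnnb1 (beta-catenin) was at 647, 678 and 687 CPM in HI, against 695, 688 and 712 CPM in control (log2 fold change -0.06 ± 0.10 SE, edgeR adjusted p = 0.709). Vcl (vinculin) rose by a log2 fold change of 0.995 (edgeR adjusted p = 0.0403), and Jup, Pkp4 and Afdn fell, with log2 fold changes of -0.62, -0.50 and -0.55.

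Among 8 tested sheddases and subunits of gamma-secretase, which cut cadherins at the membrane, 2 rose and none fell (25% and 0%). Mmp9 had 2.41, 6.998 and 4.90 CPM in HI, against 0.454, 0.368 and 0.449 CPM in control (log2 fold change 3.47 ± 0.49 SE, edgeR adjusted p = 0.0215). Adam17 had 37.4, 45.9 and 51.3 CPM in HI, against 23.9, 21.8 and 28.2 CPM in control (log2 fold change 0.87 ± 0.16 SE, edgeR adjusted p = 0.0282). Adam10, the main N-cadherin sheddase, had 76.2, 77.4 and 84.5 CPM in HI, against 117, 136 and 77.7 CPM in control and was not called. Of the microglial markers 6 of 8 rose, and the list summed to 276, 357 and 463 CPM in HI, against 101, 106 and 156 CPM in control. P2ry12 (log2 fold change -0.13) and Tmem119 (0.47) were not called, and their groups overlapped. The part of microglia in the sheddase values was not tested.

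Of 16 tested genes of planar polarity and the Fat to Hippo route 3 rose and 3 fell (18.8% each). Among them the Hippo effectors Tead1 and Yap1 and the kinase Lats2 rose, with log2 fold changes of 1.20, 1.45 and 0.96. Fjx1, which modifies Fat and Dchs, fell to 40.6, 45.8 and 40.3 CPM in HI, against 86.2, 86.7 and 75.4 CPM in control (log2 fold change -0.97 ± 0.11 SE, edgeR adjusted p = 0.0196). Prickle2 and Dvl3, of the polarity core, fell with log2 fold changes of -1.05 and -0.37. The astrocyte list beside these values had 2 of 7 genes called, Gfap and Aqp4, both higher, while Slc1a2 and Aldh1l1 had negative log2 fold changes of -1.45 and -0.11 and were not called. Its sum, in which Gfap, Slc1a3 and Aqp4 weigh most, was 2733, 2900 and 4393 CPM in HI, against 1271, 1043 and 1525 CPM in control. The part of that cell type was not tested.

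Of 12 tested cytoplasmic partners of protocadherins 6 fell and none rose (50% and 0%). They include the kinases Ptk2b and Ptk2, which clustered protocadherins inhibit, and Wasf1, Nckap1, Abi2 and Cyfip2 of the WAVE complex. Ptk2b had 25.0, 42.7 and 40.9 CPM in HI, against 201, 242 and 177 CPM in control (log2 fold change -2.51 ± 0.24 SE, edgeR adjusted p = 0.0196). Wasf1 had 130, 158 and 126 CPM in HI, against 324, 353 and 286 CPM in control (log2 fold change -1.22 ± 0.14 SE, edgeR adjusted p = 0.0196). The log2 fold changes of the other called WAVE genes were -0.48 (Nckap1), -0.56 (Abi2) and -0.73 (Cyfip2), and those of the uncalled Abi1 and Cyfip1 were -0.21 and 0.29. Ptk2b is also a gene of cortical and hippocampal neurons. The sum of the cortical list was lower in the same libraries, with 5 of its 10 genes called lower. The part of those cells in the Ptk2b value was not tested.

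Of 10 tested regulators of clustered promoter choice none rose and 1 fell (10%, near the 7.04% of all genes), namely Wiz, a zinc finger partner of histone methylation, at 102, 104 and 89.1 CPM in HI, against 150, 155 and 144 CPM in control (log2 fold change -0.61 ± 0.10 SE, edgeR adjusted p = 0.0235). Ctcf, which loops the cluster enhancers to a promoter, had 80.6, 77.6 and 81.5 CPM in HI, against 93.5, 95.9 and 87.2 CPM in control (log2 fold change -0.21 ± 0.09 SE, edgeR adjusted p = 0.136). Wapl, which releases cohesin, had 65.7, 76.7 and 80.9 CPM in HI, against 58.2, 60.3 and 60.9 CPM in control (log2 fold change 0.32 ± 0.11 SE, edgeR adjusted p = 0.0880). Over the 5 lists, the number of partner genes called was 0 without HI 2, without control 1 or without control 2, and 8 without HI 3.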

How the data were processed

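RNA of rat brain tissue was extracted with TRIzol and made into sequencing libraries with the SMARTER mRNA-Seq kit, according to the labels' protocols. HISAT2 2.1.0, SAMtools 1.10, StringTie 2.2.1 and the Rnor 6.0 assembly are named in the submitters' processing notes. The authors deposited estimated counts per gene, unscaled. How reads were counted, with which annotation and strand setting, and how shared reads were treated were not given in the sources used here. Libraries were not duplicates, with a chi-square per degree of freedom of 13.4 to 162 between pairs.

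Estimated counts were rounded, filtered with filterByExpr (minimum count 10), scaled by TMM and tested two-sided with edgeR 4.0.16 under R 4.3.3 (quasi-likelihood F test; limma 3.58.1 for voom), HI against control, with all 6 libraries sharing 1 estimate of spread (common biological coefficient of variation 0.275). Benjamini-Hochberg adjustment covered 14959 genes, with a threshold of 0.05. The SE came from the F statistic, and the fit was tested on simulated data. Members and lists were chosen with earlier results of these data known. Genes with values in every library are the called members, then in each class the 2 with the smallest p and the highest mean, and up to 4 per partner list; Abi1, Abi2, Adam10, Afdn, Aldh1l1, Aqp4, Cdh1, Cdh4, Cdh10, Cdh11, Cdh12, Cdh20, Cdh22, Celsr3, Ctcf, Ctnna2, Ctnnb1, Cyfip1, Cyfip2, Dchs1, Dchs2, Dvl3, Fat2, Fat3, Foxj1, Gfap, Pcdh17, Pcdh19, Pcdhb2, Pcdhb4, Pcdhb6, Pcdhb16, Pcdhga9, Pecam1, Slc1a2, Slc1a3, Wapl and Yap1 were added after their values were seen. Another gene of the marker lists is not reported here. Gene numbers matched GRCr8 for 78 of 80 members. Promoter runs were the most shared runs of 7 to 12 bases and were chosen on these promoters. In members they were searched on the strand of the gene only. Over all promoters the runs were searched on both strands, as were the letters CGCTG everywhere.

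Alternatives were other scalings, no filter or at least 1 CPM in 3 libraries, DESeq2 1.42.0, limma-voom, robust dispersion, a replicate block, rounding down, leaving out non-whole members and leaving out each library.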

Additional observations from a re-analysis of the deposited data

How the results depend on the processing

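The number of members lower in HI was 13, and 25 by DESeq2, 10 by limma-voom, 7 with members of shared reads left out, and 0 to 22 when single libraries were left out. Over all genes the number lower was 1053, and 2124 by DESeq2, 819 by limma-voom and 0 to 1592 when single libraries were left out. The number of members higher was 1, and 2 with upper quartiles, 2 with total counts, 3 by DESeq2, 0 by limma-voom and 0 to 3 when single libraries were left out. Without a filter that 1 was Cdh26 in place of Cdh5. Over all genes the number higher was 1021, and 1446 with upper quartiles, 2161 with total counts, 2076 by DESeq2 and 552 by limma-voom. Partner genes called were 20, and 0 to 27 when single libraries were left out. With the choroid plexus covariate or the cortical covariate, both added after the data were seen, members lower, members higher and partner genes were all 0. No gene of the whole table was called with either covariate. Total counts moved the median of all genes by 0.193, and 10 members were then lower. For the 29 members that the naming rule chose, of 522 values under alternatives 396 kept direction and side of the threshold, 99 lost the call, 8 gained one and 19 changed sign. With the cortical covariate log2 fold changes were 0.53 (Cdh2), 0.30 (Cdh6), -0.41 (Fat1), 1.46 (Fat4), -1.37 (Pcdh18), 1.16 (Pcdh7), -0.54 (Pcdh8), 0.091 (Pcdhb22), 0.50 (Pcdhga7) and 0.12 (Pcdhgc3). With the choroid plexus covariate they were -0.083 (Cdh3), 0.10 (Cdh8), 0.23 (Pcdh10) and 0.13 (Pcdhb7). Pcdh10 ran between -0.45 and 0.22 when single libraries were left out, at 0.016 without HI replicate 3 and 0.22 without control replicate 3, Pcdhb7 was 0.054 with total counts, and Pcdhgc3 was 0.0084 with upper quartiles and 0.11 with total counts. Members added after their values were seen are outside that count, and among them Cdh12 was 1.57 and Pcdhb2 2.61 with the cortical covariate and Pcdhga9 0.18 with total counts. The causes were not tested. Deviations of log2 CPM, not the levels themselves, correlated at 0.22, 0.0858 and -0.156 between same-numbered libraries. Between libraries of unlike number these deviations correlated at up to 0.149, -0.00437 and 0.329. So few values cannot decide whether the numbers pair the libraries. A replicate block left 10 members lower, 9 of them among the 13. Rows of few reads, such as Pcdhb2 and Fat2, are limited by depth.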
